A study of Mus musculus with 18 samples.

Results

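The genes described here are 10 genes through which heart muscle takes up, stores and releases fatty acids. They were chosen by name for their roles, and all 10 were found among the 55450 genes of the count table and passed the filter that left 16270 genes for testing. Cd36, Slc27a1 and Fabp3 act in uptake, Lpl and Angptl4 in lipolysis at the vessel wall, Plin2 and Plin5 on the droplet surface, Pnpla2 in droplet lipolysis, and Dgat1 and Dgat2 in triglyceride synthesis.

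RNA of left ventricles from FVB/N mice was sequenced in 4 groups. Wild-type (WT) mice received control chow (CD, n = 4) or chow with ertugliflozin (ERTU, n = 5), and littermates with cardiac-specific overexpression of Gαq received CD (n = 5) or ERTU (n = 4). Ertugliflozin inhibits the renal glucose transporter SGLT2 and was given at 0.5 mg/g of chow for 16 weeks, from the age of 4 weeks to 20 weeks. According to the methods of the study the mice were male, and the Gαq transgene causes dilated cardiomyopathy without diabetes. Each library is named here by its group and by the number it carries in the count table.

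The heart draws most of its energy from long-chain fatty acids, which reach it bound to albumin or as triglyceride in lipoproteins. Lipoprotein lipase on the capillary wall frees fatty acids from lipoproteins, membrane and cytosolic carriers bring them to the enzymes that activate them, and the surplus is esterified and kept in lipid droplets. Many of these genes are known targets of PPAR nuclear receptors, which are themselves activated by fatty acids.

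Start regions from the RefSeq promoter table (build GRCm38.p6, 250 bases before to 50 bases after each annotated start) were available for 6 of the 10 genes, in 9 windows. Lpl, Angptl4, Dgat1 and Dgat2 had no match. The nuclear receptor half-site AGGTCA was searched on both strands, together with DR1, the repeat that PPAR dimers bind, written as AGGNCA, any base and AGGNCA again. DR1 contains AGGTCA where either free letter inside AGGNCA is T. AGGTCA stood in 4 of the 9 windows, those of Cd36 and Plin2 and both of Plin5, against 16.3% of all 32851 windows of the table. Windows of the same gene are not separate units, since those of Plin5 overlap and 3 are of Slc27a1. The windows are also few, so an excess of the half-site was not shown. The repeat stood in 0 of the 9 windows, against 0.381% of all windows. The 4 windows with a match are shown first, then the window of Pnpla2 and the most upstream of the 3 of Slc27a1, the pair whose levels moved together most closely across libraries. Capitals mark AGGTCA or its reverse complement, and each line runs 5′ to 3′ along the strand of the gene.
Cd36 (chr5:17835847-17836146, minus strand): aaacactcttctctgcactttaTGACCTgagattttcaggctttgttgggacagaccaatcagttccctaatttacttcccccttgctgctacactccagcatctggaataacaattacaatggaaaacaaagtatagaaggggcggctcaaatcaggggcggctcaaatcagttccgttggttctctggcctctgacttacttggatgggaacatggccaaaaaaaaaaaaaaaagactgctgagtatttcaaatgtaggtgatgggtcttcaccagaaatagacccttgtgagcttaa
Plin2 (chr4:86670010-86670309, minus strand): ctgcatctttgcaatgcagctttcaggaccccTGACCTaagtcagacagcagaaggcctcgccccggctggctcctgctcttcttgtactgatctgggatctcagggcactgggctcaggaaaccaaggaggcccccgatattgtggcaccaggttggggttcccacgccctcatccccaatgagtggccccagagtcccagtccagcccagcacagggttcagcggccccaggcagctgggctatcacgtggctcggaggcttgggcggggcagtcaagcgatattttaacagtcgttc
Plin5, downstream start (chr17:56117249-56117548, minus strand): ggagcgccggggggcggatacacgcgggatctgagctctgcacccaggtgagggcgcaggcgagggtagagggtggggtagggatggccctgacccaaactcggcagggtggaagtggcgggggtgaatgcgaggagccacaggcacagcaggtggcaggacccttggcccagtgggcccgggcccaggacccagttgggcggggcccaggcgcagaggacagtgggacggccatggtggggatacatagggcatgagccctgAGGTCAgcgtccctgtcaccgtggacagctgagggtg
Plin5, upstream start (chr17:56117499-56117798, minus strand): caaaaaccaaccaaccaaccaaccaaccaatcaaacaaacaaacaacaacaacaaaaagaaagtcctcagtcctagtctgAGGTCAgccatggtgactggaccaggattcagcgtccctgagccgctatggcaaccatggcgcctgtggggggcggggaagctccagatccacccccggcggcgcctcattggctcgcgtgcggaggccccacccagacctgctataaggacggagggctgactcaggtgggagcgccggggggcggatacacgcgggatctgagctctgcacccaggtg
Pnpla2 (chr7:141454938-141455237, plus strand): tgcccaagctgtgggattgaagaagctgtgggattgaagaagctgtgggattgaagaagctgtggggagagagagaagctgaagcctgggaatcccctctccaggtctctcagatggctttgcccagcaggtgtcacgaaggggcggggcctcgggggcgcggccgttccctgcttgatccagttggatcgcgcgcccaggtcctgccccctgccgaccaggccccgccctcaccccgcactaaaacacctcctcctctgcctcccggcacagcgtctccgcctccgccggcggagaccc
Slc27a1 (chr8:71568621-71568920, plus strand): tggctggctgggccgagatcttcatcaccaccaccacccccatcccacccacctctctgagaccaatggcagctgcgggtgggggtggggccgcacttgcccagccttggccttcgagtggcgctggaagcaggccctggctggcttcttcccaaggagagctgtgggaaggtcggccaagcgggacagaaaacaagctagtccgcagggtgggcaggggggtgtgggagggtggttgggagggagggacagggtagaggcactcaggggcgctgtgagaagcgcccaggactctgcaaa

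In these windows the half-site lay 228 bases before the start in Cd36, 218 before it in Plin2, and 170 before and 13 after the separate starts of Plin5. The match in Cd36 and that in Plin2 were on the strand opposite to the gene. The Cd36 window lies inside the annotated gene, at an internal start. A match is a description of letters, not of binding.

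Total counts ran from 15383566 to 20908363 per library. Levels are given as CPM, the count scaled to the size of its library, and log2 CPM of libraries within a group correlated with r from 0.971 to 0.988. Gnaq, the gene of the transgene product, was at 45.6 to 208.9 CPM in WT CD, 45.5 to 229.7 in WT ERTU, 1641 to 11670 in Gαq CD and 2236 to 5207 in Gαq ERTU. All Gαq libraries were thus above all WT libraries, though the counts of Gnaq do not tell the transgene from the native gene. Cardiomyocyte markers were abundant throughout, at a summed 40210 to 59090 CPM for the 10 genes, and none of them was at 0.

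A set of 4 libraries on CD stood apart from the rest of their groups. They were WT CD 4 and Gαq CD 7, 8 and 9, in which Pdk4, a PPAR target that restrains glucose oxidation, was far lower. Pdk4 was at 165.5 CPM in WT CD 4 against 3500 to 3976 in the other 3 WT CD libraries. It was at 104.9 to 261.3 CPM in Gαq CD 7, 8 and 9 against 1818 and 1873 in the other 2 Gαq CD libraries. In the 9 ERTU libraries it ran from 1308 to 6869 CPM, so no ERTU library was that low. Gnaq was also highest within its group in these libraries, at 208.9 CPM in WT CD 4 and 8045 to 11670 in Gαq CD 7, 8 and 9 against 6304 and 1641 in Gαq CD 6 and 10. Of the 10 genes, 8 were lower in WT CD 4 than in all other WT CD libraries, 9 were lower in all of Gαq CD 7, 8 and 9 than in Gαq CD 6 and 10, and 7 met both conditions. Among all genes tested, 25.9%, 15.6% and 8.06% did so. The test of each of the 10 genes by genotype is therefore given with all 18 libraries and again without these 4. Correlations between genes are given mainly without them. Both choices were made after the data were seen. Since all 4 are CD libraries, leaving them out removes low values from the CD groups only and leaves 3 WT CD and 2 Gαq CD libraries. It also takes out more Gαq than WT libraries, so differences by genotype of genes low in them can shift upward by the choice itself.

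Another set of 4 libraries, the highest of each group for atrial markers, was left out in the same way. They were Gαq CD 8, Gαq ERTU 20, WT CD 5 and WT ERTU 14, which were also highest in their groups for the summed fibroblast, macrophage and white adipocyte markers. The 6 atrial markers summed to 910.4 CPM in Gαq CD 8, 578.2 in Gαq ERTU 20, 326 in WT CD 5 and 338.5 in WT ERTU 14, with group medians of 41.2, 219.4, 54.9 and 25.4. The 9 white adipocyte markers summed to 90.5, 143.7, 93.0 and 108.8 CPM in them, with group medians of 32.95, 58.3, 77.99 and 77.2. Much of the WT sums was Thrsp, a regulator of lipid synthesis, at 47.5 to 70.9 CPM in WT CD and 48.0 to 99.5 in WT ERTU. The other 8 markers had group medians of 11.2, 24.2, 12.2 and 15.9 CPM in the same order and were highest in the same 4 libraries.

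**Figure D1:**
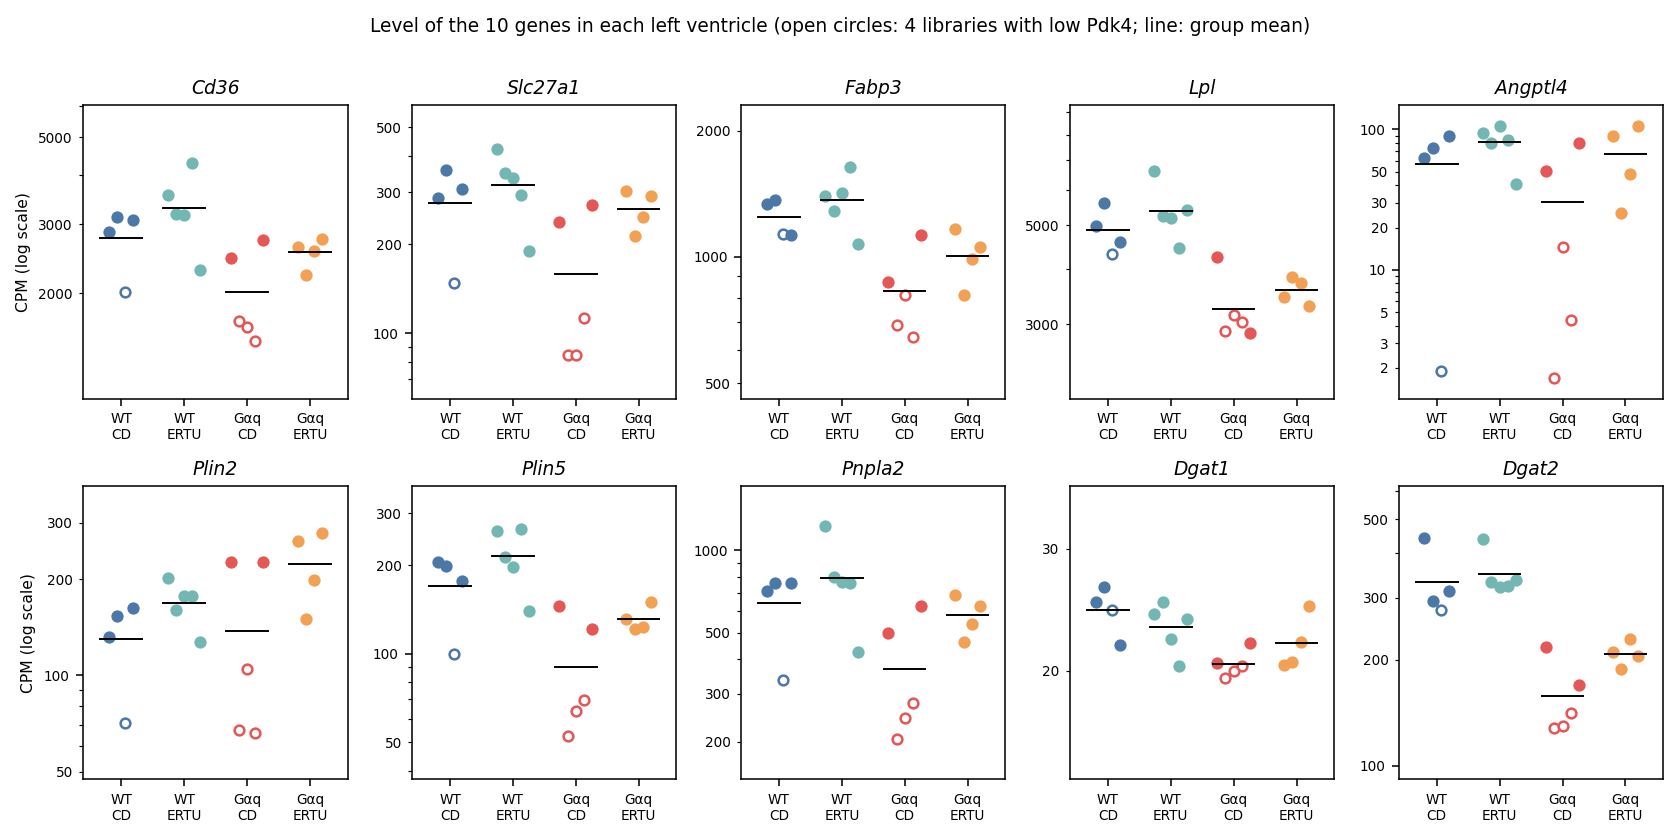
Level (CPM, log axis) of the 10 genes in each of the 18 left ventricles, by group. Each point is 1 library, horizontal lines are group means, and open circles are WT CD 4 and Gαq CD 7, 8 and 9, the 4 libraries with low Pdk4. Lpl and Dgat2 of every Gαq heart lie below those of every WT heart, and Angptl4 spans from 1.69 to 105.9 CPM.

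Per kilobase of exon, the genes differed widely in level. In WT CD the mean was highest for Fabp3, at 1510 CPM per kb, followed by Cd36 at 771.7 and Lpl at 466.1. Pnpla2 followed at 212.1, Dgat2 at 107.5, Plin5 at 81.7, Slc27a1 at 47.2, Plin2 at 36.9, Angptl4 at 16.1 and Dgat1 at 8.0 CPM per kb. The first 3 genes did not overlap with each other over the WT CD libraries, since Fabp3 ran from 1372 to 1662, Cd36 from 560.6 to 872.7 and Lpl from 412.3 to 536.7 CPM per kb. Slc27a1 (25.4 to 61.3) and Plin2 (20.2 to 46.2) did overlap, as did Plin2 and Angptl4 (0.540 to 25.3). Angptl4 varied most between libraries of a group in WT CD, Gαq CD and Gαq ERTU, with an SD of log2 CPM of 2.61, 2.30 and 0.93. In WT ERTU its SD of 0.54 was matched by that of Pnpla2. Dgat1 varied least in all groups but Gαq ERTU, with an SD of log2 CPM of 0.12 in WT CD, 0.12 in WT ERTU and 0.06 in Gαq CD, and in Gαq ERTU (0.13) Lpl and Dgat2 varied less.

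The comparison of genotypes asked how the Gαq transgene altered these genes. Over both diets 5 of the 10 genes were lower in Gαq hearts and none was called higher, with edgeR's quasi-likelihood test and p-values adjusted over all 16270 genes. Among all genes tested, 19.6% were called by genotype, and 9.92% were called lower. The 5 genes were Dgat2, Plin5, Lpl, Fabp3 and Cd36, and their log2 changes ran from -0.91 to -0.42. The median log2 change of the 10 genes was -0.56, against 0.00 over all genes. Without the 4 low-Pdk4 libraries 5 genes were again called, 4 lower and 1 higher, at 14.4% of genes called. Cd36 then left the list and Plin2 joined it in the opposite direction. More Gαq than WT libraries were left out, which by itself raises the difference of a gene low in them, such as Plin2.

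Cd36 (chromosome 5, 17781690 to 17888801, minus strand), the fatty acid translocase, is the main membrane protein of fatty acid uptake in the heart. It was at 2864, 3133, 2012 and 3072 CPM in WT CD 1, 2, 4 and 5, and at 3554, 3193, 3166, 4303 and 2297 CPM in WT ERTU 11 to 15. In Gαq hearts it was at 2464, 1701, 1642, 1510 and 2742 CPM in Gαq CD 6 to 10, and at 2624, 2233, 2568 and 2752 CPM in Gαq ERTU 16, 17, 18 and 20. Groups overlapped, with WT CD 4 and WT ERTU 15 the lowest of their groups and Gαq CD 7, 8 and 9 below all others. By genotype Cd36 fell by 0.42 ± 0.13 on the log2 scale (SE, 1.34-fold, adjusted p = 0.0281). The call was lost without any 1 of WT CD 1, 2 or 5, Gαq CD 7 or 8 or Gαq ERTU 17, where the adjusted p ran from 0.050 to 0.0601. It was also lost without the 4 low-Pdk4 libraries (log2 change -0.32, adjusted p = 0.0751) and without the 4 libraries highest in atrial markers (-0.32, adjusted p = 0.139).

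Slc27a1 (chromosome 8, 71568882 to 71587302, plus strand) encodes the fatty acid transport protein FATP1, which also activates fatty acids to their CoA esters. Its levels were 287.2, 357.5, 148.4 and 308.2 CPM in WT CD 1, 2, 4 and 5, and 422.7, 349.1, 337.1, 294.2 and 189.9 CPM in WT ERTU 11 to 15. Gαq CD 6 to 10 had 238.5, 84.2, 84.0, 112.7 and 272.0 CPM, and Gαq ERTU 16, 17, 18 and 20 had 304.4, 213.8, 247.6 and 291.1 CPM. The low values were again those of WT CD 4 and Gαq CD 7, 8 and 9. The log2 difference by genotype was -0.53 ± 0.23 (adjusted p = 0.113), and -0.29 ± 0.14 without the low-Pdk4 libraries (adjusted p = 0.190).

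Fabp3 (chromosome 4, 130308595 to 130315463, plus strand) encodes the heart type of cytosolic fatty acid binding protein. WT CD 1, 2, 4 and 5 had 1341, 1368, 1134 and 1129 CPM, and WT ERTU 11 to 15 had 1401, 1288, 1419, 1643 and 1076 CPM. Gαq CD 6 to 10 had 871.5, 687.3, 813, 642.9 and 1129 CPM, and Gαq ERTU 16, 17, 18 and 20 had 1164, 812.7, 987.1 and 1054 CPM. Most Gαq hearts lay below the WT hearts, with Gαq CD 10 and Gαq ERTU 16 reaching into the WT range. By genotype Fabp3 fell by 0.51 ± 0.11 (log2, 1.43-fold, adjusted p = 0.00160), and by 0.41 ± 0.11 without the low-Pdk4 libraries (adjusted p = 0.0159). In the annotation it overlaps Gm10570 and Zcchc17 on the other strand over 161 exon bases, and the methods of the study describe the counted pairs as being on the same strand.

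Lpl (chromosome 8, 68880491 to 68907448, plus strand) encodes lipoprotein lipase, which cardiomyocytes make and capillaries display. It was at 4996, 5623, 4320 and 4597 CPM in WT CD 1, 2, 4 and 5, and at 6642, 5250, 5188, 4444 and 5413 CPM in WT ERTU 11 to 15. Among Gαq hearts, Gαq CD 6 to 10 had 4258, 2900, 3152, 3037 and 2860 CPM, and Gαq ERTU 16, 17, 18 and 20 had 3461, 3831, 3716 and 3292 CPM. The highest Gαq heart, Gαq CD 6, was just below the lowest WT heart, WT CD 4. Only 1.83% of all genes were lower in every Gαq library than in every WT library. By genotype Lpl fell by 0.59 ± 0.09 (log2, 1.51-fold, adjusted p = 9.96e-05), and by 0.56 ± 0.11 without the low-Pdk4 libraries (adjusted p = 0.00213). Alone among the 10 genes it was not lower in all of Gαq CD 7, 8 and 9 than in the other Gαq CD libraries.

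Angptl4 (chromosome 17, 33773750 to 33781830, minus strand) encodes a secreted inhibitor of lipoprotein lipase. It was at 62.3, 73.5, 1.91 and 89.6 CPM in WT CD 1, 2, 4 and 5, and at 95.1, 79.8, 105.9, 84.6 and 40.6 CPM in WT ERTU 11 to 15. In Gαq hearts it was at 50.5, 1.69, 14.6, 4.41 and 80.6 CPM in Gαq CD 6 to 10, and at 89.8, 25.5, 48.4 and 105.2 CPM in Gαq ERTU 16, 17, 18 and 20. The 4 lowest values were all in the low-Pdk4 libraries, and Gαq ERTU 17 was the next lowest. With that spread the log2 difference by genotype was -0.58 ± 0.55 (adjusted p = 0.509), with an interval of 2 SE from -1.69 to 0.52. Without the 4 libraries it was -0.25 ± 0.26 (adjusted p = 0.590).

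Plin2 (chromosome 4, 86648386 to 86670060, minus strand) encodes perilipin 2, the widespread coat protein of lipid droplets. WT CD 1, 2, 4 and 5 had 131.8, 153.1, 70.9 and 162.2 CPM, and WT ERTU 11 to 15 had 200.9, 160.5, 177, 176.8 and 127.2 CPM. Gαq CD 6 to 10 had 226.2, 67.2, 104.5, 66.2 and 225.5 CPM, and Gαq ERTU 16, 17, 18 and 20 had 262.5, 150.4, 199.3 and 278.6 CPM. Gαq CD 6 and 10 lay above every WT library, while Gαq CD 7 and 9 were the lowest of all 18. By genotype the log2 difference was 0.25 ± 0.23 (adjusted p = 0.500), the only positive value among the 10 genes. Without the low-Pdk4 libraries it was 0.47 ± 0.13 and passed the threshold (adjusted p = 0.0185).

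Plin5 (chromosome 17, 56111601 to 56117596, minus strand) encodes perilipin 5, the droplet coat protein of oxidative tissues that also tethers droplets to mitochondria. It was at 205.4, 199.6, 99.7 and 177.2 CPM in WT CD 1, 2, 4 and 5, and at 261.7, 213.5, 197.3, 265.1 and 139.8 CPM in WT ERTU 11 to 15. Gαq CD 6 to 10 had 145.3, 52.5, 63.8, 69.8 and 121.4 CPM, and Gαq ERTU 16, 17, 18 and 20 had 131.8, 121.8, 123.8 and 150.0 CPM. Apart from WT CD 4 and WT ERTU 15, each WT library was above each Gαq library. By genotype Plin5 fell by 0.81 ± 0.18 (log2, 1.75-fold, adjusted p = 0.00300), and by 0.65 ± 0.12 without the low-Pdk4 libraries (adjusted p = 0.00139).

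Pnpla2 (chromosome 7, 141455198 to 141460743, plus strand) encodes adipose triglyceride lipase, which starts the breakdown of droplet triglyceride. Its levels were 708.6, 759, 337.3 and 757.6 CPM in WT CD 1, 2, 4 and 5, and 1223, 801.3, 768.2, 758.1 and 424 CPM in WT ERTU 11 to 15. The values in Gαq CD 6 to 10 were 498.9, 204.5, 245.1, 277.3 and 625.6 CPM, and those in Gαq ERTU 16, 17, 18 and 20 were 686.9, 463.2, 539.7 and 625.5 CPM. The lowest WT libraries were WT CD 4 and WT ERTU 15, and the lowest Gαq libraries were again Gαq CD 7, 8 and 9. The log2 difference by genotype was -0.62 ± 0.22 and narrowly missed the threshold (adjusted p = 0.0511). Without the low-Pdk4 libraries it was -0.44 ± 0.17 (adjusted p = 0.0907).

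Dgat1 and Dgat2 encode the unrelated enzymes that join the last fatty acid to diacylglycerol. Dgat2 (chromosome 7, 99153658 to 99182719, minus strand) was at 442.9, 293.6, 277.1 and 312.4 CPM in WT CD 1, 2, 4 and 5, and at 438.4, 331, 320.6, 323.3 and 335.9 CPM in WT ERTU 11 to 15. Of the Gαq hearts, Gαq CD 6 to 10 had 217.4, 128.3, 129.7, 141.7 and 170.1 CPM, and Gαq ERTU 16, 17, 18 and 20 had 210.3, 188.2, 229.2 and 205.0 CPM. No Gαq heart reached the lowest WT heart on either diet. By genotype Dgat2 fell by 0.91 ± 0.12 (log2, 1.88-fold, adjusted p = 7.85e-06), and by 0.79 ± 0.11 without the low-Pdk4 libraries (adjusted p = 9.59e-05). Dgat1 (chromosome 15, 76502015 to 76511953, minus strand) ran from 21.8 to 26.4 CPM in WT CD, 20.3 to 25.1 in WT ERTU, 19.5 to 21.9 in Gαq CD and 20.4 to 24.8 in Gαq ERTU. Its log2 difference by genotype was -0.17 ± 0.06 (adjusted p = 0.0741), and -0.12 ± 0.08 without the low-Pdk4 libraries (adjusted p = 0.333). Without the 4 libraries highest in atrial markers it was -0.24 ± 0.06 and passed the threshold (adjusted p = 0.00951).

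Markers of several cell types were also called by genotype, where 19.6% of all genes tested were called and 9.92% were called lower. Of 8 fibroblast markers 7 were higher and none lower, and they summed to 1553 to 2946 CPM in WT CD, 1459 to 2675 in WT ERTU, 2942 to 4120 in Gαq CD and 2784 to 3409 in Gαq ERTU. Of 8 endothelial markers 3 were lower, with summed levels of 1374 to 1766, 1428 to 1605, 1212 to 1452 and 1237 to 1430 CPM in the same order. Of 10 cardiomyocyte markers 3 were lower and 1 higher, with summed levels of 40210 to 58430, 45540 to 58070, 49870 to 59090 and 47950 to 57450 CPM. Of 8 macrophage markers 1 was higher, and of 7 white adipocyte markers tested 1 was lower. Of 3 skeletal muscle markers tested 1 was higher and 1 lower, and no brown adipocyte, atrial or red blood cell marker was called. Without the low-Pdk4 libraries, where 14.4% of all genes were called, 6 fibroblast markers were higher and 2 endothelial markers were lower. In that fit 1 cardiomyocyte marker was lower and 1 higher. No fibroblast, endothelial or cardiomyocyte marker was at 0 in any group, and the part of these markers in the results was not tested. In bulk tissue, fewer cells of a type and less RNA per cell cannot be told apart.

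Taken by diet, the effect of the transgene was called for 4 genes on CD and for 2 on ERTU. On CD, Dgat2 fell by 1.07 ± 0.16 on the log2 scale (adjusted p = 1.90e-04), Plin5 by 0.91 ± 0.26 (adjusted p = 0.0360), Lpl by 0.59 ± 0.14 (adjusted p = 0.00893) and Fabp3 by 0.58 ± 0.15 (adjusted p = 0.0221). Among all genes 8.10% were called on CD, and 4.10% were called lower. On ERTU, Dgat2 fell by 0.75 ± 0.16 (adjusted p = 0.00511) and Lpl by 0.59 ± 0.14 (adjusted p = 0.00951), with 8.17% of all genes called and 4.24% called lower. Lpl and Dgat2 were the genes whose groups did not overlap on either diet, which held for 4.60% of all genes on CD and 5.49% on ERTU in the lower direction.

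The calls on CD leaned on few libraries. Without the 4 low-Pdk4 libraries, 1 gene was called on CD, Dgat2, which fell by 0.85 ± 0.19 (adjusted p = 0.0269), and 1.90% of genes were called, with 2 Gαq CD libraries left. Fabp3 was then at -0.35 (adjusted p = 0.546), Lpl at -0.51 (adjusted p = 0.290) and Plin5 at -0.54 (adjusted p = 0.300). Without the 4 libraries highest in atrial markers, Fabp3 (adjusted p = 0.0516) and Plin5 (adjusted p = 0.160) were not called on CD and Dgat1 was (log2 change -0.30, adjusted p = 0.0471). The call of Plin5 on CD was also lost without any 1 of WT CD 1, 2 or 5 or Gαq CD 7, 8 or 9, and that of Fabp3 without WT CD 1 or 2 or Gαq CD 7 or 9. Without Gαq CD 10, Slc27a1 (-1.08, adjusted p = 0.0367) and Pnpla2 (-1.06, adjusted p = 0.0358) were called lower as well. Lpl and Dgat2 stayed called on both diets whichever single library was left out.

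**Figure D2:**
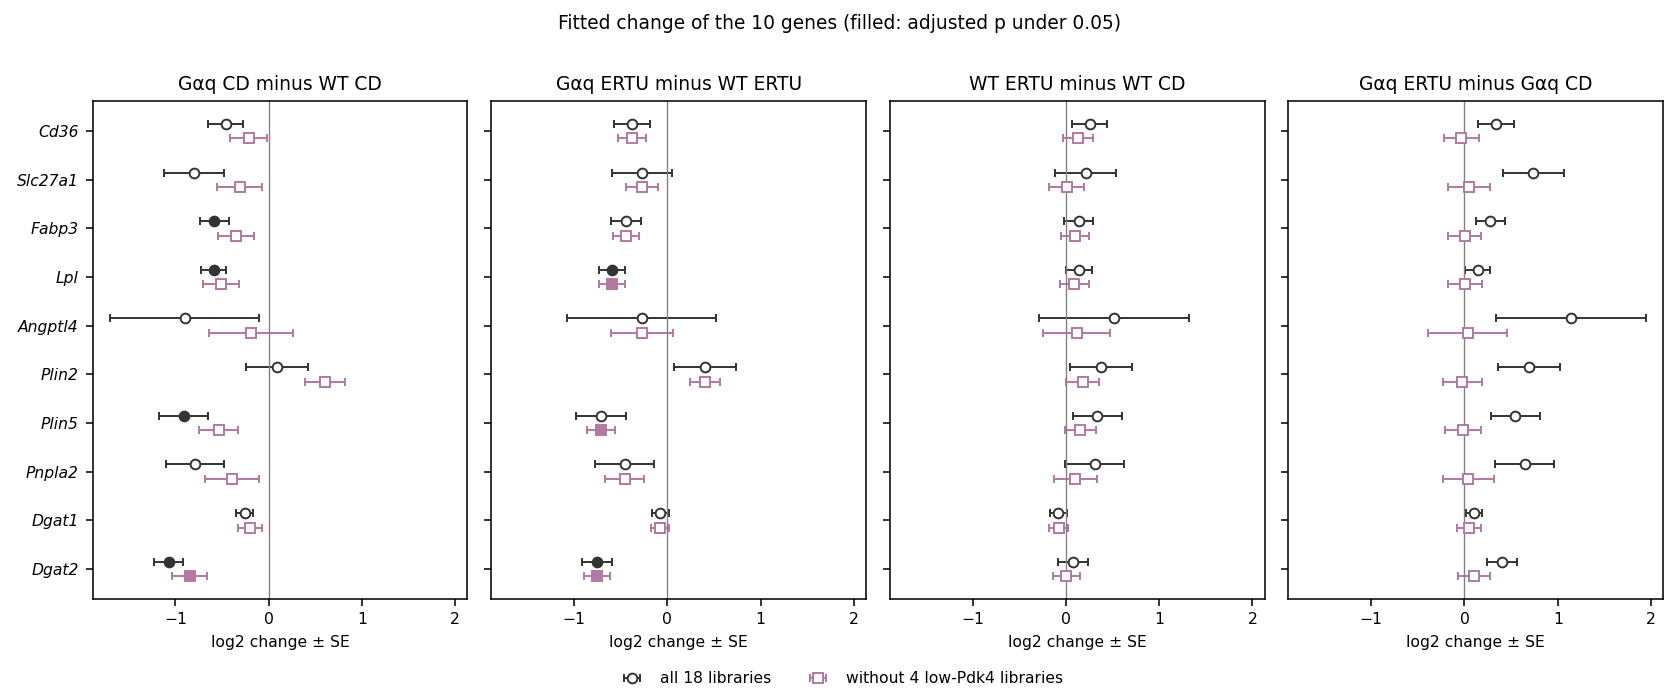
Fitted log2 change (± SE) of the 10 genes in the 4 comparisons of groups, with all 18 libraries (circles) and without the 4 low-Pdk4 libraries (squares), with filled symbols for an adjusted p under 0.05. Dgat2 and Lpl lie left of 0 in both comparisons of genotype, and in the comparison of Gαq ERTU with Gαq CD the squares gather between -0.035 and 0.10. Leaving out CD libraries that are low in most of the 10 genes lowers the differences with ERTU by itself.

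The comparison of diets asked whether ertugliflozin altered the same genes. No member was called in WT, in Gαq or over both genotypes, and among all genes 0% were called over both genotypes, 0% in WT and 0.00615% in Gαq. At an unadjusted p under 0.05, 7.70% of all genes stood out over both genotypes, 2.24% in WT and 7.62% in Gαq. Of the 10 genes, Cd36, Plin2, Plin5, Pnpla2 and Dgat2 did so over both genotypes, with p from 0.0254 to 0.0482 by edgeR's test. Slc27a1, Plin2 and Dgat2 did so in Gαq (p from 0.0192 to 0.0492), and none did in WT. The 10 fitted log2 changes were all above 0 over both genotypes, against 49.5% of all genes, with a median of 0.37. They were above 0 for 10 genes in Gαq (median 0.47), against 48.9% of all genes, and for 9 genes in WT (median 0.23), against 51.5%, where Dgat1 was at -0.08. These comparisons share the CD libraries described above, so their values are given side by side and not as repeats of each other. Levels of the 10 genes also varied together within groups (median r of 0.659 over all pairs), so their signs are not separate results. Without the low-Pdk4 libraries, 9 genes were above 0 over both genotypes (median 0.06) and 9 in WT (median 0.10). In Gαq 7 were (median 0.02), with 2 Gαq CD libraries left. Leaving those CD libraries out lowers the differences with ERTU by the choice itself.

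In Gαq hearts the largest fitted difference with ERTU among the 10 genes was that of Angptl4, at 1.15 ± 0.80 (log2, adjusted p = 0.702). Slc27a1 followed at 0.74 ± 0.32, Plin2 at 0.69 ± 0.33, Pnpla2 at 0.64 ± 0.31, Plin5 at 0.54 ± 0.26 and Dgat2 at 0.40 ± 0.16, each with an adjusted p of 0.653 to 0.656. Cd36 was at 0.34 ± 0.19, Fabp3 at 0.28 ± 0.15, Lpl at 0.14 ± 0.14 and Dgat1 at 0.10 ± 0.09. In all 10 genes the ERTU and CD libraries of Gαq hearts overlapped. Gnaq itself differed by -1.22 ± 0.52 in the same comparison (log2, adjusted p = 0.653). It ran from 2236 to 5207 CPM in Gαq ERTU and from 1641 to 11670 CPM in Gαq CD. The part of the Gnaq level in the differences of the 10 genes was not tested. Intervals of 2 SE, which are not adjusted for the number of genes, ran from 0.09 to 1.39 for Slc27a1 and from 0.09 to 0.72 for Dgat2. They ran from 0.03 to 1.35 for Plin2, 0.02 to 1.07 for Plin5 and 0.02 to 1.27 for Pnpla2. Once adjusted over all genes, none of these differences was told from 0.

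These differences came with the split of the Gαq CD group by Pdk4. Gαq CD 6 and 10 had 50.5 and 80.6 CPM of Angptl4, within the 25.5 to 105.2 CPM of Gαq ERTU, whereas Gαq CD 7, 8 and 9 had 1.69 to 14.6 CPM. Without the 4 low-Pdk4 libraries, the log2 differences of Gαq ERTU from Gαq CD lay between -0.035 and 0.10 for all 10 genes, with Angptl4 at 0.04 ± 0.43, Slc27a1 at 0.05 ± 0.23 and Plin2 at -0.021 ± 0.21. These values rest on the 2 Gαq CD libraries left. In WT hearts the differences with ERTU were 0.52 ± 0.81 for Angptl4, 0.38 ± 0.33 for Plin2, 0.34 ± 0.26 for Plin5 and 0.31 ± 0.32 for Pnpla2, and all adjusted p were 1.00 when rounded. Without WT CD 4 and the 3 Gαq CD libraries these became 0.11 ± 0.36, 0.18 ± 0.18, 0.15 ± 0.16 and 0.10 ± 0.23. The libraries left out were below the rest of their group in 9 of the 10 genes in Gαq CD and 8 in WT CD. Leaving them out lowers the differences with ERTU by the choice itself, so the smaller values do not show whether ertugliflozin altered these genes.

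The interaction term, the difference between the ERTU changes of Gαq and WT hearts, called none of the 10 genes and 0% of all genes, with 1.92% of genes at an unadjusted p under 0.05. It was 0.63 ± 1.13 for Angptl4, 0.53 ± 0.46 for Slc27a1, 0.33 ± 0.45 for Pnpla2, 0.33 ± 0.22 for Dgat2 and 0.00 ± 0.19 for Lpl on the log2 scale. A difference between WT and Gαq hearts in the response of these genes was therefore not shown, and an interval of 2 SE for Lpl ran from -0.39 to 0.39.

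Genes of the same pathway were read from lists chosen by role. Among all genes tested, 19.6% were called by genotype and 9.92% were called lower, and these shares belong beside the counts of each list below. The named genes of a list are no measure of the whole pathway. Among 13 other genes of uptake and activation, 1 was higher and 2 were lower by genotype. Slc27a6, a fatty acid transport protein of heart, rose by 1.67 ± 0.30 (log2, adjusted p = 3.58e-04) from a very low level of 0.173 to 0.879 CPM in WT hearts to 0.844 to 2.66 CPM in Gαq hearts. Acsl1, the main acyl-CoA synthetase of heart, fell by 0.61 ± 0.13 (adjusted p = 0.00147), and Cav1, the caveolar coat protein, fell by 0.39 ± 0.08 (adjusted p = 0.00150). The fatty acid binding proteins Fabp4, of endothelium and fat, and Fabp5 differed by -0.38 ± 0.20 (adjusted p = 0.196) and -0.21 ± 0.12 (adjusted p = 0.230). The same 3 genes were called without the low-Pdk4 libraries, where 14.4% of all genes were called.

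Around lipoprotein lipase, 1 of 9 other genes was higher and 1 lower. Lmf1, which folds the lipase in the endoplasmic reticulum, fell by 0.50 ± 0.08 (log2, adjusted p = 1.57e-04). It was at 19.7 to 27.4 CPM in WT hearts and 14.5 to 20.4 CPM in Gαq hearts. Apoe, an apolipoprotein that macrophages also make, rose by 0.55 ± 0.15 (adjusted p = 0.0123). Gpihbp1, which carries the lipase across the endothelium, differed by -0.32 ± 0.20 (adjusted p = 0.283), and Vldlr, the receptor for very low density lipoprotein, by -0.23 ± 0.12 (adjusted p = 0.198).

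On the droplet surface, 3 of 11 other genes were lower and none was higher. Fitm2, which helps droplets bud from the endoplasmic reticulum, fell by 0.94 ± 0.08 (log2, adjusted p = 8.13e-08). Every Gαq heart (86.2 to 130.0 CPM) was below every WT heart (176.2 to 275.2 CPM). Among all genes 1.83% separated fully in this direction, and Fitm2 was named for its small adjusted p. Its relative Fitm1, of striated muscle, fell by 0.52 ± 0.10 (adjusted p = 9.30e-04), and Plin4, a perilipin of muscle and fat, fell by 0.71 ± 0.18 (adjusted p = 0.00742). Plin3 differed by -0.18 ± 0.13 (adjusted p = 0.364). Plin1 and Cidec, droplet proteins of adipocytes, were low and uneven, from 0.390 to 13.8 and from 0.557 to 24.5 CPM, with differences of 0.99 ± 0.47 (adjusted p = 0.158) and 0.97 ± 0.54 (adjusted p = 0.232). Both were highest in Gαq ERTU 20, where the 7 white adipocyte markers other than Plin1 and Cidec were also highest, at a summed 105.3 CPM.

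In droplet lipolysis, 3 of 9 other genes were lower and none was higher. Abhd6, a monoacylglycerol lipase also named for its small adjusted p, fell by 0.67 ± 0.09 (log2, adjusted p = 1.09e-05). It was at 15.6 to 21.5 CPM in WT hearts and 10.1 to 13.9 CPM in Gαq hearts with no overlap, as in 1.83% of all genes. Mgll, which frees the last fatty acid, fell by 0.60 ± 0.10 (adjusted p = 1.10e-04), and Pnpla8, a membrane phospholipase of the same family as Pnpla2, fell by 0.29 ± 0.06 (adjusted p = 9.72e-04). Lipe, hormone-sensitive lipase, differed by -0.68 ± 0.24 (adjusted p = 0.0521). The activator of Pnpla2, Abhd5, differed by -0.03 ± 0.07 (adjusted p = 0.785), and its inhibitors G0s2 and Hilpda by 0.16 ± 0.17 (adjusted p = 0.553) and 0.31 ± 0.11 (adjusted p = 0.0588).

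In triglyceride synthesis, 1 of 11 other genes was higher and 2 were lower. Gpam, the mitochondrial enzyme of the first acylation, fell by 0.78 ± 0.16 (log2, adjusted p = 0.00160), and Agpat3, of the next acylation, fell by 0.40 ± 0.11 (adjusted p = 0.0153). Lpin3, a phosphatidate phosphatase at 5.71 to 15.1 CPM, rose by 0.46 ± 0.14 (adjusted p = 0.0283). Of 10 other known PPAR targets, 8 were lower by genotype both with and without the low-Pdk4 libraries, with a median log2 change of -1.18 and -0.95. Among all genes 9.92% were called lower with all libraries, and 14.4% were called in either direction without the low-Pdk4 libraries. The list of PPAR targets includes Pdk4, by which those libraries were picked, and the part of PPAR was not tested. Over the 5 pathway lists the median log2 change lay between -0.18 and -0.03, nearer to the 0.00 of all genes than the -0.56 of the 10 genes. The called genes of the droplet coat, lipolysis, lipoprotein and synthesis lists were also the ones called without the low-Pdk4 libraries.

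**Figure D3:**
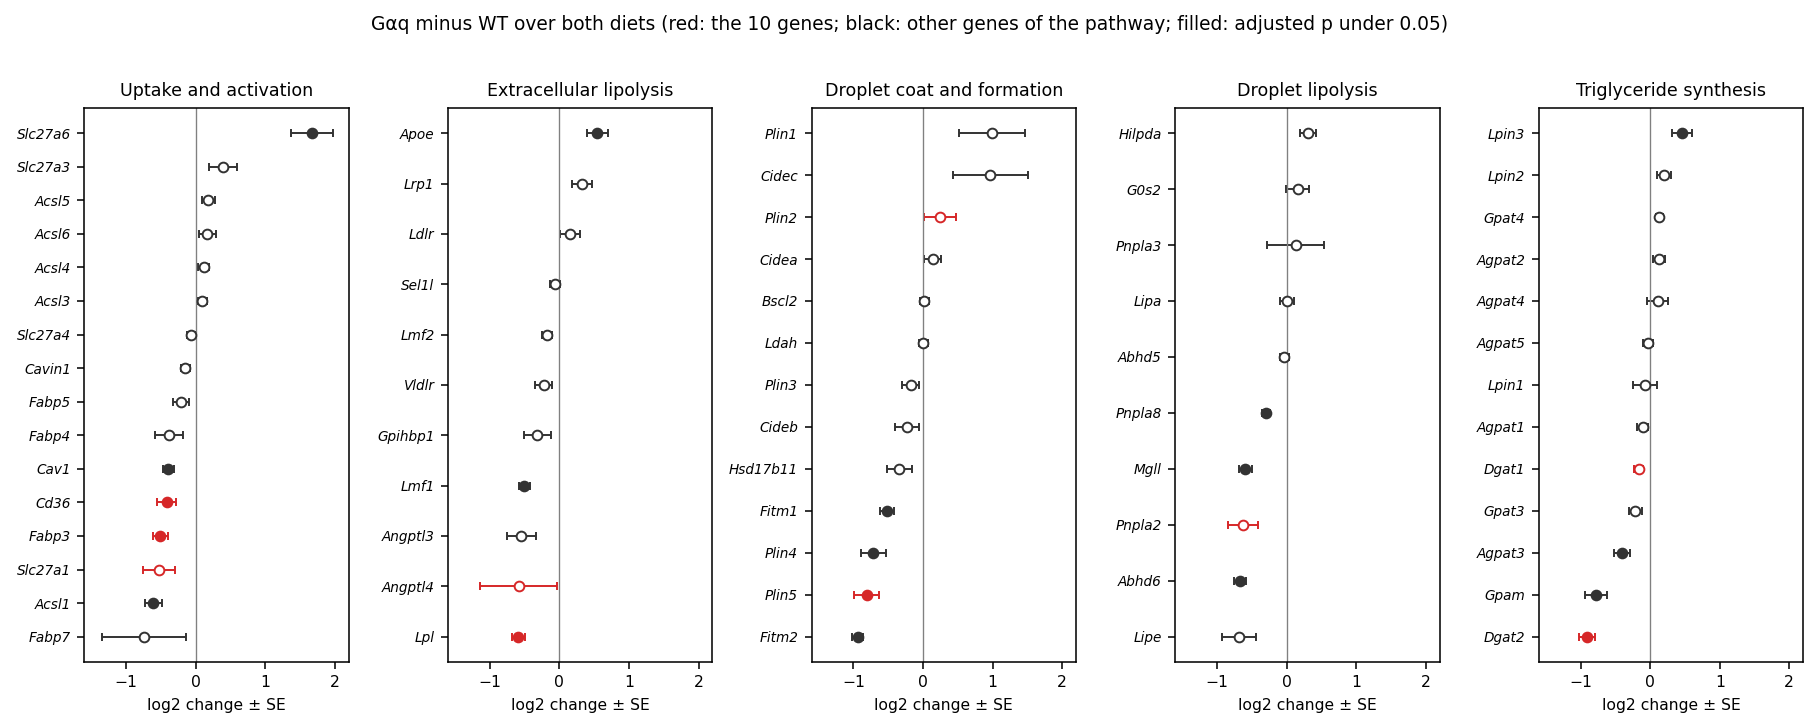
Log2 change (± SE) by genotype over both diets of the 10 genes (red) and of the other tested genes of the pathway lists (black), with filled points for an adjusted p under 0.05. Called genes lie mostly left of 0, and Slc27a6, Apoe and Lpin3 lie right of it.

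Ratios of genes with related roles were computed within each library per kilobase of exon, chosen after the values were seen and given with no test. The ratio of Plin2 to Plin5 was 0.381 to 0.544 in WT CD, 0.396 to 0.541 in WT ERTU, 0.563 to 1.1 in Gαq CD and 0.734 to 1.18 in Gαq ERTU. Every Gαq library was above every WT library, including the low-Pdk4 libraries, which had 0.422 in WT CD 4 and 0.563 to 0.973 in Gαq CD 7, 8 and 9. The ratio of Dgat2 to Dgat1 was 11 to 17.5 in WT CD, 13.1 to 18 in WT ERTU, 6.44 to 10.5 in Gαq CD and 8.20 to 10.3 in Gαq ERTU, also without overlap between genotypes. Dgat2 alone already separated the genotypes, so its ratio is no further result. Plin2 and Plin5 had fitted changes by genotype of opposite sign. How many other pairs of genes separate in this way was not counted. The ratio of Lpl to its inhibitor Angptl4 did not separate the genotypes. It was 764 in WT CD 4 and reached 579 in Gαq CD 7, while it stayed between 10.6 and 50.8 in the 9 ERTU libraries.

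**Figure D4:**
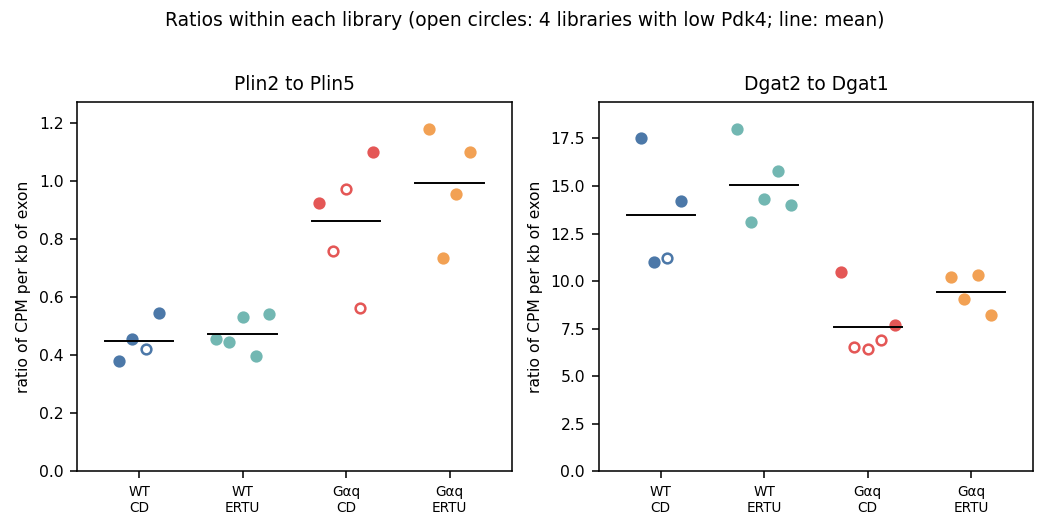
Ratio of Plin2 to Plin5 and of Dgat2 to Dgat1, each in CPM per kb of exon, in each of the 18 libraries by group, with lines for group means and open circles for the 4 low-Pdk4 libraries. The Plin2 to Plin5 ratio of the Gαq libraries starts at 0.563, above the highest WT value of 0.544.

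Levels of the genes also varied together between mice of the same group. Correlations were computed on log2 CPM centred within groups. Over all 18 libraries, as first planned, 25 of 45 pairs had an adjusted p under 0.05 by r (permutation tests within groups), with a median r of 0.659. Those values include the gap between the 4 low-Pdk4 libraries and the rest of their groups. Correlations are therefore described over the other 14 libraries, a choice made after the data were seen. Over these 14 libraries, 38 of the 45 pairs had a Pearson r above 0, with a median of 0.348. An adjusted p under 0.05 was reached by 9 pairs by r and by 2 by Spearman's rho (permutation tests within groups, 100000 resamples). Slc27a1 and Pnpla2 were the closest pair, with r = 0.957 (permutation p = 4.00e-05, adjusted p = 0.00180) and rho = 0.921 (permutation p = 4.00e-05, adjusted p = 0.00180). Without the 2 libraries farthest from the median of Slc27a1, WT ERTU 11 and 15, r was 0.879.

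Angptl4 and Plin2 followed, with r = 0.943 (permutation p = 6.60e-04, adjusted p = 0.0148) and rho = 0.855 (permutation p = 0.00170, adjusted p = 0.0382), and r = 0.804 without Gαq ERTU 17 and WT ERTU 15. Cd36 and Fabp3 had r = 0.795 (permutation p = 0.00331, adjusted p = 0.0237) and rho = 0.758 (permutation p = 0.0108, adjusted p = 0.0884), and r = 0.735 without WT ERTU 11 and 14. The other 6 pairs with an adjusted p under 0.05 by r were among Cd36, Slc27a1, Angptl4, Plin2 and Pnpla2, with r from 0.663 to 0.791. Of these, the r of Angptl4 and Pnpla2 went from 0.735 to 0.474 without Gαq ERTU 17 and WT ERTU 15. None of the pairs of Lpl, Plin5, Dgat1 or Dgat2 was among the 9. The smallest permutation-based adjusted p by r of Plin5 was 0.0658, with Cd36 (r = 0.832, and 0.705 without WT ERTU 14 and 11). Its r with Slc27a1 went from 0.697 to -0.028 without WT ERTU 15 and 11.

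Pdk4 was set against each of the 10 genes in the same 14 libraries. By r it passed the threshold with Pnpla2 (r = 0.925), Slc27a1 (r = 0.893) and Plin2 (r = 0.744), each with a permutation-based adjusted p of 0.0327 over 10 tests, and by rho with none of them.

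**Figure D5:**
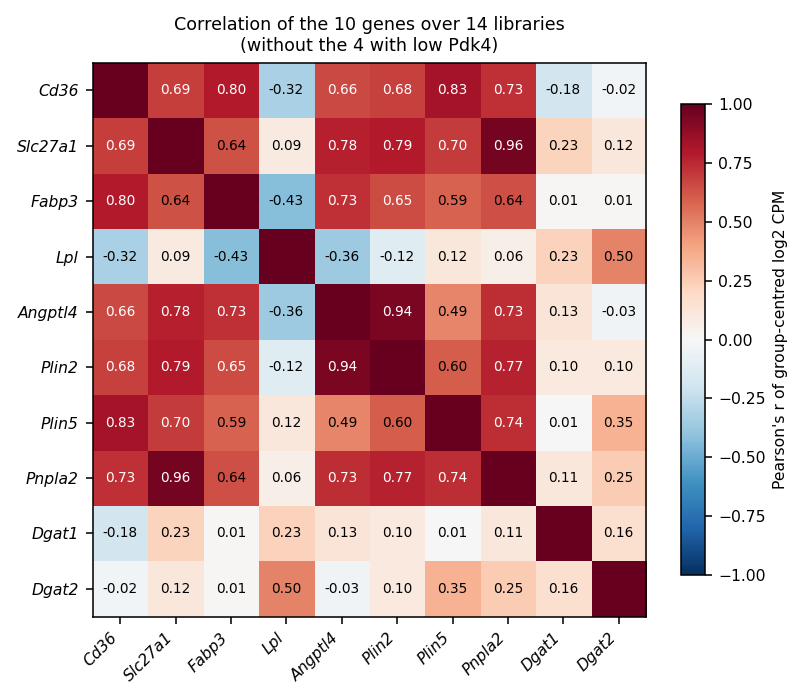
Pearson's r of group-centred log2 CPM for each pair of the 10 genes over the 14 libraries other than WT CD 4 and Gαq CD 7, 8 and 9. Cd36, Slc27a1, Fabp3, Angptl4, Plin2, Plin5 and Pnpla2 form a block of positive values, with 0.957 for Slc27a1 and Pnpla2, while those of Lpl, Dgat1 and Dgat2 with them run from -0.43 to 0.35. Within the block, no pair of Plin5 had an adjusted p under 0.05 by r.

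Across all 18 libraries, the 3 genes most like Cd36 among 13088 other genes were Acot1 (r = 0.965), Gm10638 (r = 0.954) and Scd4 (r = 0.948), and over the 14 libraries their r was 0.910, 0.904 and 0.859. Those most like Angptl4 were Txnip (r = 0.975), Pdk4 (r = 0.935) and Tmem140 (r = 0.930), with r of 0.680, 0.650 and 0.670 over the 14 libraries. Those most like Plin2 were Cd300a (r = 0.926), Txnip (r = 0.924) and Gm17251 (r = 0.913), with r of 0.718, 0.811 and 0.656. The likeness was lower over the 14 libraries in all 9 cases, and it includes the differences between groups. Genes picked for the highest r over all 18 libraries tend to have a lower r over a part of them. The part of the 4 low-Pdk4 libraries in the likeness therefore cannot be read from this fall. Acot1 and Scd4 belong to families of closely related genes, between which the counting could split reads.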

How the data were processed

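The authors sequenced poly(A)-selected RNA of frozen left ventricle with 100-bp paired reads, aligned it to mm10 with STAR 2.6.0c and counted proper pairs on the same strand, if aligned uniquely, over nuclear-encoded genes of Ensembl with featureCounts (Subread 1.6.2), per the labels and the methods of the study. The deposited counts are raw counts per gene. The deposited log2-like values were made by the authors with the variance-stabilizing transformation of DESeq2 and served here only in an alternative. Symbols, positions and exon lengths came from GENCODE M21 (GRCm38), which matched 55190 of 55450 gene IDs (99.5%). The total count was 15383566 to 20908363 per library, and precision was taken from the spread between libraries.

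The main tool was edgeR 4.0.16 under R 4.3.3. filterByExpr on the 4 groups kept 16270 genes, which left out 0.0906% of counts. TMM factors scaled libraries, CPM used those factors, and a prior count of 2 was added for log2 CPM. Quasi-likelihood F tests were run for genotype and diet in a model with both factors and for 5 contrasts in a model with 1 mean per group. SE was the absolute log2 change divided by the square root of F, an interval is 2 SE either way, and Benjamini-Hochberg adjustment covered all tested genes, with 0.05 as threshold. Correlations across libraries used permutation within groups in Python 3.11.15 with 100000 resamples. The labels present the samples as separate mice and give no batch.

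The 10 genes, the pathway and marker lists and the tests were chosen with earlier results of these data known. Named genes are the 10 genes, 15 partners always named, up to 4 further called genes of each pathway list by smallest adjusted p, the 3 genes most like Cd36, Angptl4 and Plin2, and Pdk4.

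Other settings tried were no filter, median-of-ratios size factors, a mean CPM of at least 1, DESeq2 1.42.0, limma 3.58.1 voom with quality weights, limma on the deposited values, only the groups compared, a white adipocyte score in the model, a prior count of 0.5 and leaving out each library. Leaving out the 4 low-Pdk4 libraries and the 4 highest in atrial markers was added after the data were seen. Tested on simulated data for the contrast of Gαq on CD over 16053 genes, edgeR called 50 of 100 genes changed 1.5-fold and 91 of 100 changed 2-fold, with 11 false calls.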

Additional observations from a re-analysis of the deposited data

Results flagged for a closer look

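Libraries were set apart where their gap to the nearest library of the group, divided by the range of the group, passed the 95% critical value of Dixon's test. Of 80 groups of values tested, for the 10 genes and the marker lists, 12 did so, where chance gives about 1 in 20, or 4. Among the 10 genes, Pnpla2 in WT CD 4 was at 337.3 CPM against 708.6 to 759 in the other WT CD libraries (ratio 0.880). Lpl in Gαq CD 6 was at 4258 CPM against 2860 to 3152 in the others (ratio 0.791). Dgat2 in WT ERTU 11 was at 438.4 CPM against 320.6 to 335.9 in the others (ratio 0.870).

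The other cases were summed marker levels. The skeletal muscle sums are those of Ckm, which heart also expresses, since the other 6 genes of that list summed to 1.06 to 8.73 CPM in any library. WT CD 5 was low for cardiomyocyte markers, at 40210 CPM against 55480 to 58430 (0.838), and for skeletal muscle markers, at 1911 against 2591 to 2636 (0.938). WT ERTU 14 was low for cardiomyocyte markers, at 45540 CPM against 55350 to 58070 (0.783), and for skeletal muscle markers, at 2014 against 2643 to 2786 (0.815). It was high for macrophage markers, at 485.4 CPM against 333.4 to 375.8 (0.721), and for atrial markers, at 338.5 against 17.03 to 100.9 (0.739). Gαq CD 8 was high for macrophage markers, at 670.9 CPM against 395.2 to 470.9 (0.725), for white adipocyte markers, at 90.5 against 16.4 to 33.4 (0.770), and for atrial markers, at 910.4 against 17.6 to 199.2 (0.797).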

How the results depend on the processing

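No paired analysis was possible because the numbers of the count columns run across the series and could not be linked to the replicate numbers of the labels. Of 1260 refits of the 10 genes with 1 library left out, 1218 kept the direction and the side of the threshold. With 1 library left out, the number of the 10 genes called ran from 4 to 6 by genotype, for Gαq on CD from 2 to 6, for Gαq on ERTU from 2 to 2 and in the other comparisons from 0 to 0, and the number of all genes from 2812 to 3458, 788 to 1414 and 946 to 1696. For ERTU in Gαq 1 gene was called with all libraries and 0 to 0 with 1 left out. Without WT CD 1 and WT CD 2 the genes called for Gαq on CD numbered 788 and 851, against 1318. Fitting only the groups compared called 2 of the 10 genes for Gαq on CD, against 4. Without the 4 low-Pdk4 libraries 1 of the 10 and 317 of all genes were called there. Voom called 2755 genes for Gαq on ERTU, against 1330. DESeq2 called 2 genes by diet, against 0, and 4 for ERTU in Gαq, where no filter, only the groups compared, the adipocyte score and both sets of 4 libraries left out gave 0. Changes of sign were seen only in differences that did not pass the threshold. With 1 library left out, the ranges that crossed 0 were those of Dgat1 by diet (-0.026 to 0.037), Plin2 for Gαq on CD (-0.16 to 0.27), Dgat2 for ERTU in WT (-0.017 to 0.25) and, for the interaction, Cd36 (-0.021 to 0.22) and Lpl (-0.075 to 0.12). Voom gave -0.13 for Plin2 on CD, -0.015 for Dgat2 in WT and 0.035 for the interaction of Lpl, and the deposited values gave -0.049 for Plin2 on CD and 0.013 for that interaction, which was 2.62e-04 at a mean CPM of at least 1 and 0.065 with the adipocyte score. Without the low-Pdk4 libraries ERTU in Gαq gave -0.035 for Cd36, -0.021 for Plin2 and -0.018 for Plin5, diet gave -0.026 for Dgat1, and the interaction gave -0.17 for Cd36, -0.093 for Fabp3, -0.080 for Angptl4, -0.20 for Plin2, -0.17 for Plin5 and -0.061 for Pnpla2. Without the 4 libraries highest in atrial markers diet gave -0.026 for Dgat1, and the interaction gave -0.14 for Angptl4 and -0.0090 for Plin2. Pnpla2 by genotype passed the threshold with no filter, DESeq2 and the adipocyte score (adjusted p = 0.0313, 0.0481 and 0.0423). Fabp3 on ERTU passed with DESeq2 and voom (0.0428 and 0.0322), Plin5 on ERTU with only the groups compared and without the low-Pdk4 libraries (0.0208 and 0.00801), and Dgat1 on CD with voom (0.0473). The cause was not tested. With 4 or 5 libraries a group, the intervals of 2 SE given in the text bound what could be seen.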

Other observations

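The table of counts gives what whole tissue holds, so transcripts of the 10 genes in fat, vessel or atrial cells are counted with those of ventricular muscle. Mean log2 CPM of the fibroblast markers was higher by 0.72 in Gαq hearts on CD and by 0.72 on ERTU (exact permutation p = 0.0159 each, adjusted p = 0.191 over 36 tests of 9 marker lists). None of the 36 had an adjusted p under 0.05, but the smallest p that groups of 4 and 5 allow is 0.00794, which times 36 is 0.286, so 1 list that separated the groups fully could not have passed. Red blood cell, brown adipocyte and skeletal muscle markers summed to 388.7 to 1451, 359 to 620.1 and 1283 to 2786 CPM per library. The skeletal muscle sum was nearly all Ckm (1280 to 2784 CPM) and the brown adipocyte sum nearly all Cox8b and Cidea (359 to 619.5 CPM), which heart also expresses. Ucp1 and Elovl3, the other 2 brown adipocyte markers, summed to 0 to 0.656 CPM, and the other 6 skeletal muscle markers to 1.06 to 8.73 CPM. Protein levels, lipid content and enzyme activity were not measured in these files.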
